A study of Nicotiana tabacum with 36 samples.

Results

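The gene models described here are those of tobacco (*Nicotiana tabacum*, cultivar K326) whose transcripts peaked at ZT18 in both shoot and shoot apex. Plants were 56 days old and were kept at 18 h of light and 6 h of darkness, and root, whole shoot and shoot apex were each harvested at ZT0, ZT6, ZT12 and ZT18, counted in hours from dawn. ZT18 is the scheduled change from light to dark, the sources do not say on which side of it tissue was taken, and sampling every 6 h cannot place a peak more closely. With 3 replicates in each of the 12 groups there were 36 RNA-seq libraries, all from untreated plants of a single cultivar, and the sources do not say how many plants made up a replicate or whether the 3 tissues came from the same plants. A gene model was taken as a member if its highest time-point median reached 5 TPM, a length-corrected relative abundance that sums to the same total in every library, in both aerial tissues, if the medians of all 12 libraries of each tissue lay within 4-fold of each other, and if the ZT18 median exceeded the highest of the other 3 medians by at least 0.585 on the log2(TPM + 1) scale in both tissues. The smaller of these log2 ratios is called the score below. The rule allowed up to 150 members, but only 29 of the 69500 gene models met it, out of 25133 that passed the 2 filters on level. With the same thresholds and no limit on number, 261 gene models peaked at ZT0, 226 at ZT6 and 139 at ZT12.

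Transcript abundance in plants rises and falls over the day under the joint control of the circadian clock, light and sugar supply. In *Arabidopsis*, genes of the clock itself act at set times of day, with *CCA1* and *LHY* around dawn and *TOC1*, *GI* and the evening complex genes *ELF3*, *ELF4* and *LUX* towards dusk, and many evening genes carry a short promoter motif, the evening element, that CCA1 and LHY bind. None of these roles could be attached to the members from the files used here, which give identifiers of gene models without gene names, and 0 of the 69500 identifiers could be found in the gene table of RefSeq. The study describes a functional annotation of its gene models, which was not used here. The members are therefore described by identifier, length and expression, no marker list of a tissue could be matched to check the labels, and no sequence is shown.

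Total expected counts ran from 4125090 to 21265992 per library. A pair of shoot libraries stood apart from the other 34. The 10 most counted gene models held 36.6% of all counts in the first of them, shoot ZT6 replicate 1, and 12.2% in the other, shoot ZT18 replicate 2, where the remaining libraries had 1.42% to 5.45%. The study lists both with a low share of reads mapped, together with root ZT6 replicates 1 and 2 and root ZT18 replicate 2. The deposited counts of root ZT18 replicate 2 are not low, with a total of 13332241. They exceed the number of mapped reads listed for it, so that the listing and the file may not describe the same run, and results that rest on this library carry that doubt. Shoot ZT6 replicate 1 was the lowest of the 12 shoot libraries for 28 of the 29 members, but also for 97.6% of the 25133 gene models that passed the level filters, so low member values there were shared by nearly all transcripts on the TPM scale. Shoot ZT18 replicate 2 was the lowest ZT18 library of shoot for 25 members and for 81.1% of those gene models. It was itself the ZT18 median in shoot for 3 members, Nitab4.5_0000036g0390.1, Nitab4.5_0000680g0050.1 and Nitab4.5_0000195g0220.1.

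Scores ran from 0.59 to 3.05 with a median of 0.78, which with 1 TPM added to each median is a ratio of 1.5 to 8.27. The ratio was larger in shoot than in shoot apex for 24 of the 29, with a median of 2.66 times in shoot (1.5 to 28.7) and 1.72 times in shoot apex (1.5 to 8.27). These values chose the members and are given as a description only. In bulk tissue, a change in the number of cells that hold a transcript and a change in its amount per cell cannot be told apart.

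**Figure D1:**
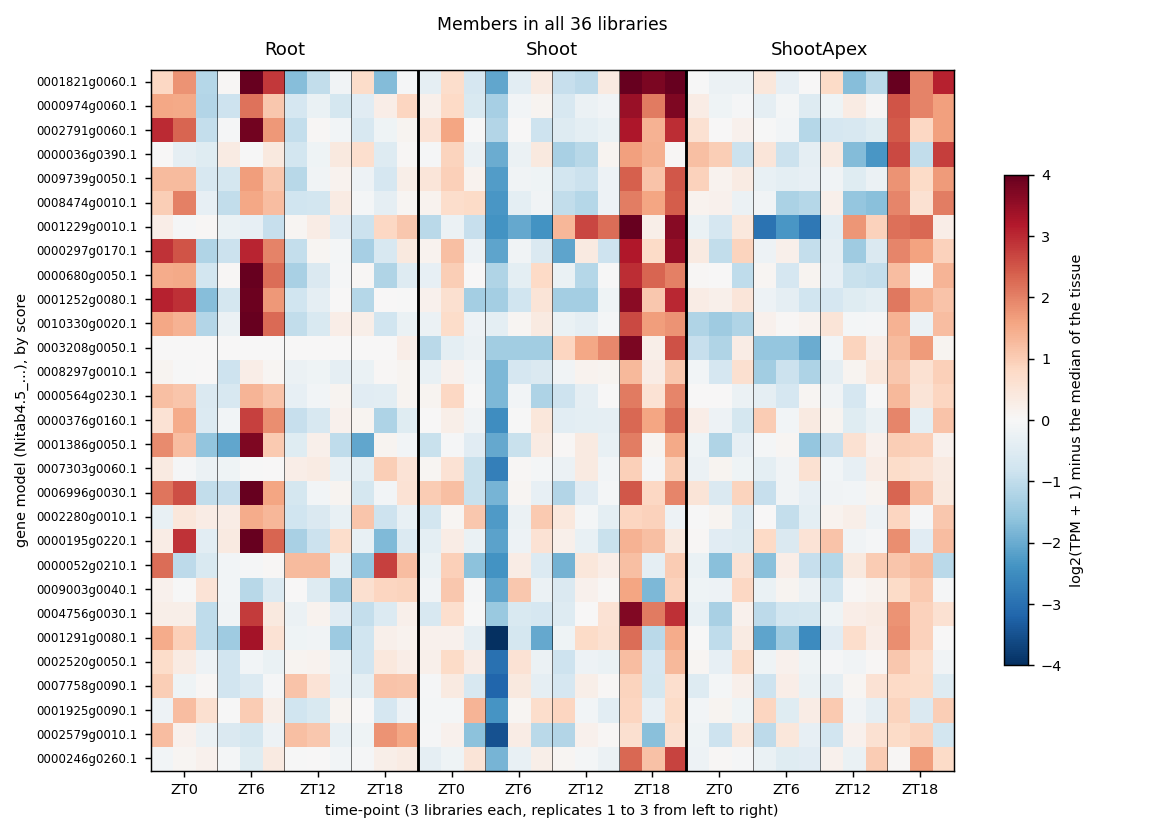
Expression of the 29 members (rows, by score from the top) in all 36 libraries (columns), as log2(TPM + 1) minus the median of the 12 libraries of that tissue, with red above and blue below it. ZT18 of shoot and shoot apex is red by the choice of members, whereas in root the red cells lie mostly in ZT0 replicates 1 and 2 and ZT6 replicates 2 and 3.

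The highest score belonged to Nitab4.5_0001821g0060.1, a model of 1243 bases. Its shoot values at ZT18 were 613, 191 and 317 TPM in replicates 1 to 3, while the other 9 shoot libraries held between 2.36 and 22.5 TPM. In shoot apex it was at 225, 20.1 and 43.4 TPM at ZT18 and between 0.63 and 7.94 TPM in the other 9. ZT18 was thus above every other library in both tissues, although its shoot apex replicates were far apart. Nitab4.5_0000974g0060.1 (747 bases), with the next highest score, was much less abundant. It was at 26.7, 9.57 and 32.7 TPM in shoot at ZT18, against 0 to 3.35 TPM at other times, and at 10.5, 6.91 and 5.22 TPM in shoot apex, against 0.42 to 1.54 TPM. Again the ZT18 libraries did not overlap with the rest in either tissue.

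On the TPM scale most members lacked this separation in each tissue. All 3 ZT18 libraries exceeded the other 9 for 11 of the 29 members in shoot, for 8 in shoot apex and for 5 in both. Over the 44594 gene models with enough counts to be tested, such separation was seen for 0.209% in shoot and 0.327% in shoot apex, and since the members were chosen on this contrast nothing is read from the difference. In CPM scaled by TMM, a normalisation that is less swayed by a few very abundant models, 18 members were separated in shoot and 7 in shoot apex. The share over all gene models was not computed on that scale, nor for both tissues together. Nothing is therefore read from those counts or from their change between scales. For members without separation in TPM, at least 1 replicate at ZT18 lay within the range of the other times. Nitab4.5_0000036g0390.1 (882 bases) showed this plainly, with 30.9, 1.56 and 33.4 TPM at ZT18 in shoot apex against 0 to 10.6 TPM at other times, and 17.0, 14.3 and 4.93 TPM at ZT18 in shoot against 0.45 to 9.53 TPM. In both tissues at least 1 ZT18 replicate lay within the range of the other times.

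The member with the median score was Nitab4.5_0000376g0160.1 (1119 bases). In shoot it was at 113, 69.8 and 109 TPM at ZT18 and between 3.19 and 31.4 TPM otherwise, without overlap. In shoot apex it was at 33.9, 5.87 and 19.1 TPM at ZT18, and 5.87 TPM fell inside the range of 4.57 to 17.5 TPM of the other 9 libraries. Its peak was thus clear of the spread in shoot and not in shoot apex. Nitab4.5_0004756g0030.1, of only 261 bases, was separated in both tissues, but more widely in shoot. There it was at 52.6, 16.4 and 30.1 TPM at ZT18 against at most 5.58 TPM at other times. In shoot apex the ZT18 values of 14.5, 7.41 and 5.72 TPM still exceeded the highest other value, 4.56 TPM, but by much less.

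**Figure D2:**
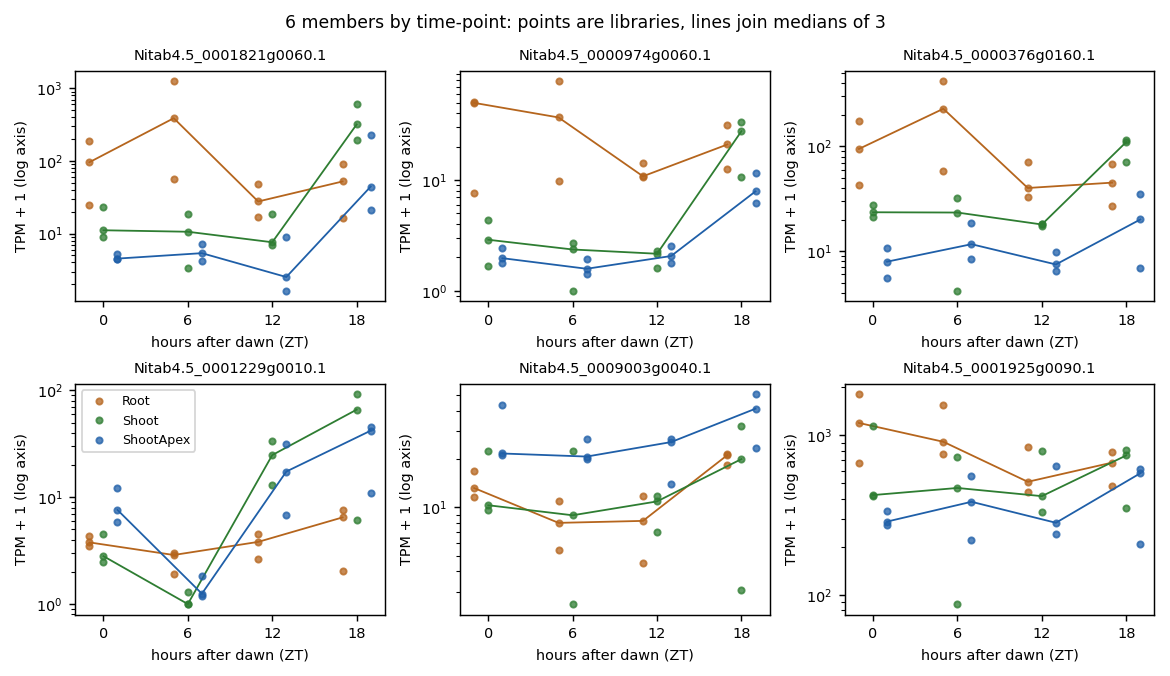
TPM + 1 (log axis) of 6 members at the 4 time-points, with a point per library, a line through the medians of 3, and root and shoot apex points shifted by 1 h to the left and right. Nitab4.5_0001229g0010.1 was already raised at ZT12 over ZT6 in both aerial tissues, and in Nitab4.5_0009003g0040.1 alone the 3 root libraries of ZT18 lay above the other 9.

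The members differed in what preceded and followed the peak. In shoot the second highest median lay at ZT0 for 15 members, at ZT12 for 11 and at ZT6 for 3, and in shoot apex at ZT12 for 14, at ZT0 for 9 and at ZT6 for 6. The same time-point came second in both tissues for 23 of the 29, with ZT12 for 11, ZT0 for 9 and ZT6 for 3. Lowest medians lay at ZT6 or ZT12 in shoot, in 15 and 14 members, and at ZT6 in 16 members in shoot apex. Shoot ZT6 replicate 1 was the lowest shoot library for 28 of the 29 members and for 97.6% of level-filtered gene models. The shoot ZT6 median was then the lower of the remaining ZT6 values. Shares over all gene models were not computed for these orders, so none is read as particular to the members. A build-up of medians from ZT6 to ZT18 was seen in Nitab4.5_0001229g0010.1 (420 bases). In shoot it was at 0, 0.29 and 0 TPM at ZT6, at 12.1, 32.9 and 23.8 TPM at ZT12 and at 90.8, 5.15 and 65.2 TPM at ZT18. Shoot apex ran alongside it, with 0.18, 0.84 and 0.25 TPM at ZT6, 5.89, 30.4 and 16.4 TPM at ZT12 and 41.1, 44.4 and 10.02 TPM at ZT18. The low value at ZT18 was in a different replicate in each tissue, replicate 2 of shoot and replicate 3 of shoot apex, and at both ZT12 and ZT18 the values stood above those of ZT6 in every library. In shoot that low value, 5.15 TPM, was below every ZT12 value. At ZT0 the model was at 1.48, 3.53 and 1.81 TPM in shoot and at 6.61, 4.81 and 11.3 TPM in shoot apex. There 11.3 TPM was above 5.89 TPM at ZT12 and 10.02 TPM at ZT18.

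Nitab4.5_0003208g0050.1 (408 bases) had the same course at a lower level and was nearly absent from root. In shoot it was at 0 TPM in all 3 ZT6 libraries, at 3.78, 6.78 and 9.09 TPM at ZT12 and at 34.9, 2.12 and 14.5 TPM at ZT18. In shoot apex it rose from at most 0.36 TPM at ZT6 to 2.68, 6.38 and 3.73 TPM at ZT12 and 8.51, 12.0 and 3.28 TPM at ZT18. It was listed at 0 in 11 of the 12 root libraries, with 0.2 TPM in the other, root ZT18 replicate 3. In shoot at ZT0 it stood at 0.25, 1.01 and 1.24 TPM, below all of its ZT12 and ZT18 values. Shoot apex lacked this gap, with 1.09, 0.74 and 3.87 TPM at ZT0. There 3.87 TPM was above 2.68 and 3.73 TPM at ZT12 and 3.28 TPM at ZT18.

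The 2 most abundant members were among the 3 of lowest score. Nitab4.5_0001925g0090.1 (618 bases) had the highest median over the 24 aerial libraries, 417 TPM. Its shoot values were 808, 350 and 748 TPM at ZT18 and 86.5 to 1137 TPM in the other 9 libraries, with the highest of all at ZT0. In shoot apex it was at 578, 208 and 614 TPM at ZT18, against 220 to 642 TPM. The ZT18 libraries thus lay within the range of the other times in shoot, and in shoot apex replicate 2 was the lowest of all 12 libraries. The next most abundant, Nitab4.5_0002579g0010.1 (444 bases), was also among the 2 members of lowest score. It was at 188, 37.1 and 185 TPM in shoot and at 276, 299.9 and 97.5 TPM in shoot apex at ZT18, and in both tissues 1 ZT18 replicate, at 37.1 TPM in shoot and 97.5 TPM in shoot apex, was below most libraries of other times.

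At the threshold the choice of members was close. The lowest scores inside were 0.5876 for Nitab4.5_0002579g0010.1 and 0.5864 for Nitab4.5_0000246g0260.1, and the highest outside were 0.5848 for Nitab4.5_0000358g0030.1 and 0.5588 for Nitab4.5_0000091g0300.1. Nitab4.5_0000246g0260.1 (897 bases) had its lower ratio in shoot apex, where it was at 17.1, 56.0 and 29.0 TPM at ZT18 against 11.5 to 34.5 TPM, and in shoot it was at 34.8, 15.5 and 46.7 TPM against 1.02 to 9.39 TPM. The model just outside, Nitab4.5_0000358g0030.1, had values of 115, 24.7 and 121 TPM in shoot and 181, 164 and 39.3 TPM in shoot apex at ZT18. Membership also rested on single libraries. Without shoot ZT18 replicate 1, 16 of the 29 still met the rule, and without shoot apex ZT18 replicate 1, 12 did, whereas leaving out any other single aerial library kept at least 21. Raising the minimum to 10 TPM kept 18.

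Root was the tissue that the rule did not use, and it was tested for the same peak. Expected counts of all 36 libraries were fitted with edgeR's quasi-likelihood test, and all 29 members were among the 44594 gene models tested. Root at ZT18 against the mean of the other 3 time-points gave 0 members higher and 0 lower at an adjusted p under 0.05 (Benjamini-Hochberg over all gene models), where 0.00224% of all gene models tested were called higher and 0.0224% lower. DESeq2 and limma also called 0 members in either direction. The aerial peak was thus not detected in root, in a comparison that called very few gene models of any kind. At an unadjusted p under 0.05, 1 member was higher and 7 were lower in edgeR, against 3.04% and 1.91% of all gene models. The median log2 fold change of the members was -0.74, compared with 0.02 over all gene models tested, and moved between -0.93 and -0.36 as each root library was left out in turn. It was -0.36 without root ZT6 replicate 2, the library that moved it furthest.

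The highest root median lay at ZT0 for 10 members, at ZT6 for 11, at ZT12 for 1 and at ZT18 for 6, and the root medians of Nitab4.5_0003208g0050.1 were all 0 TPM. Over all gene models tested, 24.8% had their highest root median at ZT18, so that the members' count there was near the background. Among the gene models that passed the level filters ZT0 held the highest root median in 20.8%, ZT6 in 29.0%, ZT12 in 22.3% and ZT18 in 27.5%. The same log2 ratio as in the score, computed in root, was at or under -0.585 for 18 members and at least 0.585 for 2, with a median of -1.25, against 20.5% and 0.470% of the gene models that passed the level filters.

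**Figure D3:**
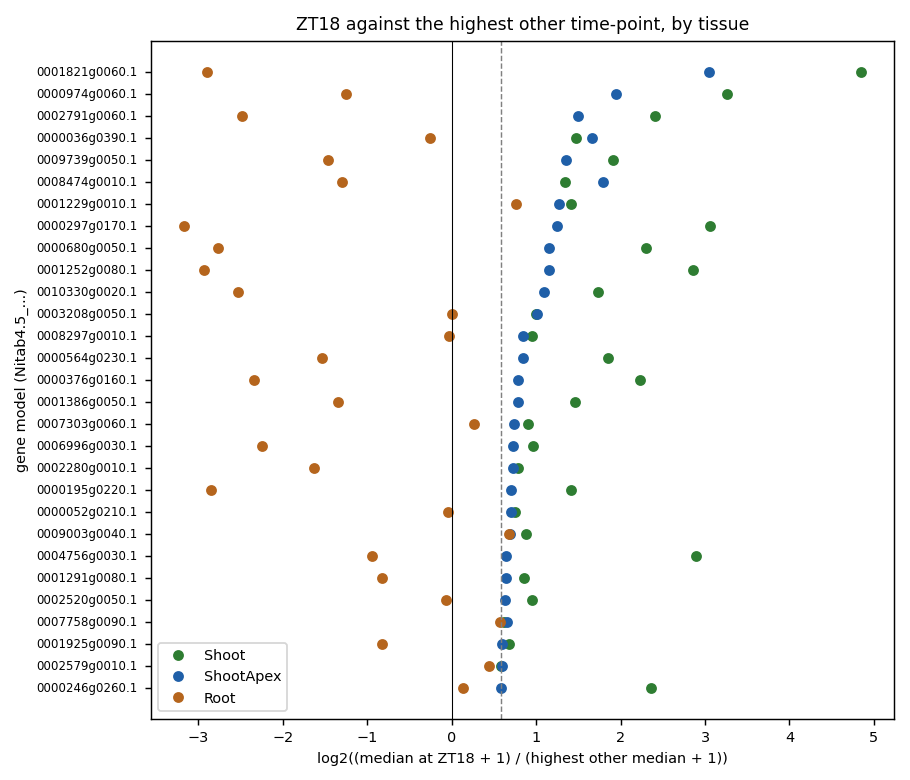
For each member, the log2 ratio of the ZT18 median to the highest other median (both with 1 TPM added) in shoot, shoot apex and root, with the threshold of 0.585 dashed. Shoot and shoot apex lie at or right of the threshold by the choice of members, and in root 18 of 29 members lie left of -0.585.

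Against single time-points, 0 members were higher in root at ZT18 than at ZT0, at ZT6 or at ZT12 in edgeR, and 0 of the 29 were lower than at ZT0 or ZT12. Of all gene models tested, 0% were called higher than at ZT0, 0.0561% than at ZT6 and 0% than at ZT12, with 0.0179% and 0.00448% lower than at ZT0 and ZT12. At an unadjusted p under 0.05, 12 members were lower at ZT18 than at ZT0 (1.92% of all gene models) and 0 were higher (1.96%), 15 were lower than at ZT6 (5.03%), and 3 were higher than at ZT6 (10.1%). Against ZT12, 1 member was higher (0.536%) and 0 were lower (1.07%). As each root library was left out in turn, the 12 members ran from 3 (without ZT0 replicate 2) to 14 (without ZT0 replicate 3). Over all gene models these settings gave 447 and 1212, against 858 in the main fit. The 15 members ran from 5 (without ZT6 replicate 2) to 18 (without ZT6 replicate 1), with 1495 and 1933 gene models, against 2245. Without ZT18 replicate 2 there were 4 and 11 members, and 506 and 1125 gene models. For ZT18 lower than ZT0 at an unadjusted p under 0.05, limma gave 0 members with 0.1 TPM added and 3 with 1 TPM added. DESeq2 gave 12. Over all gene models they gave 229, 509 and 1071 in that order. At an adjusted p under 0.05, DESeq2 and limma also called 0 members higher than at ZT0, ZT6 or ZT12, and 0 lower than at ZT0 or ZT12. The median log2 fold change was -0.97 against ZT0, -1.06 against ZT6 and 0.23 against ZT12.

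At ZT6, 2 members were higher than at ZT18 in root, where 0.123% of all gene models tested were called. Nitab4.5_0000680g0050.1 (888 bases) was at 4.29, 122 and 23.6 TPM in root at ZT6 and at 4.36, 1.26 and 2.59 TPM at ZT18. Replicate 2 stood far above the others at ZT6, and replicate 1 was within the ZT18 range. The log2 fold change of ZT18 against ZT6 was -4.25 (standard error 0.88, edgeR adjusted p = 0.0356). Nitab4.5_0000195g0220.1 (1143 bases) was at 7.74, 225 and 33.1 TPM at ZT6 and at 4.6, 1.01 and 3.72 TPM at ZT18, with a log2 fold change of -4.88 (standard error 1.02, edgeR adjusted p = 0.0371). Here all 3 ZT6 libraries were above those of ZT18. Both were named for this call after their values were seen. Without root ZT6 replicate 2, without root ZT18 replicate 2 and without root ZT18 replicate 3, 0 members passed, and without root ZT18 replicate 1, 1 did. Of all gene models, 20, 14, 14 and 58 were called lower at ZT18 in that order, against 55 in the main fit. The count of members was 4 without root ZT0 replicate 3 and 5 without root ZT6 replicate 1, and DESeq2 called 6 members. These settings also called more gene models of any kind lower at ZT18. They called 71, 144 and 261 in that order, against 55 in the main fit. Both calls were lost with the replicate number as a block (0 members), with root libraries alone (0) and in limma on log2(TPM + 0.1) (0), and limma on log2(TPM + 1) called 1 member. Of all gene models, these fits called 39, 30, 18 and 189 lower at ZT18 in that order.

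Over the 4 root time-points together, 4 members differed in edgeR at an adjusted p under 0.05, where 0.195% of all gene models tested did. They were Nitab4.5_0000680g0050.1 (adjusted p = 0.0119), Nitab4.5_0010330g0020.1 (0.0215), Nitab4.5_0000195g0220.1 (0.0234) and Nitab4.5_0000376g0160.1 (0.0476), named after their values were seen. Nitab4.5_0010330g0020.1 (630 bases) was at 3.06, 95.5 and 22.1 TPM in root at ZT6, at 13.1, 11.6 and 1.15 TPM at ZT0 and at 4.67, 1.79 and 3.00 TPM at ZT18. Nitab4.5_0000376g0160.1 was at 57.8, 419 and 228 TPM at ZT6 and at 93.6, 175 and 42.0 TPM at ZT0, against 66.4, 25.9 and 44.1 TPM at ZT18. In each of the 4 the highest root library was ZT6 replicate 2. Without that library 0 members passed, and 1 passed without root ZT12 replicate 1, root ZT12 replicate 2, root ZT18 replicate 2 or root ZT18 replicate 3. Those settings also called fewer gene models of any kind. They called 26, 47, 53, 36 and 38 in that order, against 87 in the main fit. DESeq2 called 7 members, limma 0 and edgeR on root libraries alone 0. Over all gene models, limma called 18 with 0.1 TPM added and 264 with 1 TPM added. Root libraries alone gave 9 calls over all gene models. DESeq2 also called more gene models of any kind, 359 of the 44594 tested, against 87 in edgeR. At an unadjusted p under 0.05 in edgeR, 19 members differed, against 8.12% of all gene models.

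Root ZT6 replicate 2 was the highest root library for 17 of the 29 members, 58.6%, against 8.07% of all gene models tested. In TMM-scaled CPM it was the highest for 14 members, and the share over all gene models was not computed on that scale. That library had a total of 7447374 expected counts and is among those the study lists with a low share of reads mapped. Among gene models that passed the same rule with another peak, the share was 9.20% for ZT0, 8.41% for ZT6 and 2.88% for ZT12, and the differences from the members were not tested. For 15 members, the 4 libraries ZT0 replicates 1 and 2 and ZT6 replicates 2 and 3 all lay above the other 8 root libraries, an order found for 0.572% of all gene models tested. This order was noticed in the data and is not a contrast of the study, so it was given no test. It divides the replicates of ZT0 and of ZT6.

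**Figure D4:**
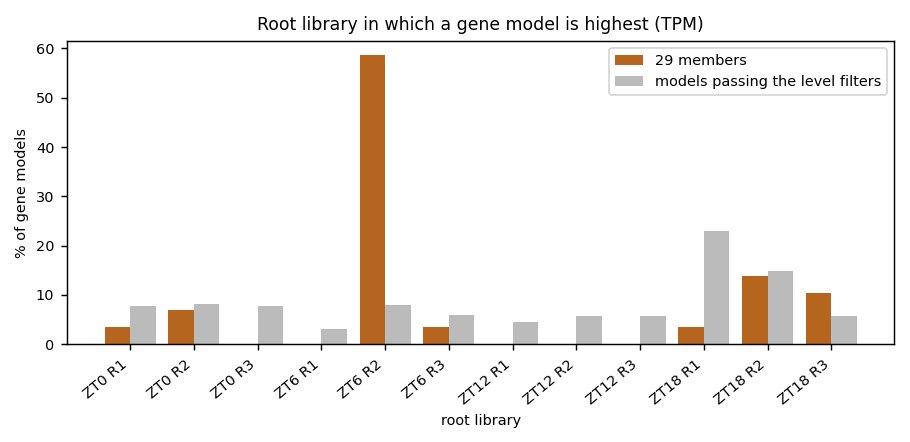
Share (%) of the 29 members (brown) and of the 25133 gene models that passed the level filters (grey) whose highest TPM in root was in each of the 12 root libraries. For the members 58.6% were highest in ZT6 replicate 2, where the grey share was 7.95%.

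Over the 15 members with this root order, the lowest of the 4 libraries was 1.03 to 3.53 times the highest of the other 8. The member of highest score, Nitab4.5_0001821g0060.1, was among them. In root it was at 94.9, 187 and 23.4 TPM at ZT0, at 55.1, 1256 and 387 TPM at ZT6, at 15.7, 26.6 and 47.6 TPM at ZT12 and at 88.5, 15.3 and 51.2 TPM at ZT18. Its highest root value was above any of its aerial values, and its replicates at ZT6 were far apart. The lowest of its 4 libraries, at 94.9 TPM, was little above the highest of the other 8, at 88.5 TPM. Nitab4.5_0001252g0080.1 (390 bases) was at 72.5, 64.6 and 1.64 TPM in root at ZT0 and at 4.34, 129 and 27.5 TPM at ZT6, while all 6 libraries of ZT12 and ZT18 were between 2.94 and 7.80 TPM. In shoot the same model was at 30.5, 4.43 and 19.8 TPM at ZT18 and at most 2.97 TPM otherwise. Nitab4.5_0000974g0060.1 was at 49.4, 48.9 and 6.63 TPM at ZT0 and 8.77, 77.4 and 35.8 TPM at ZT6 in root, against 11.6, 19.98 and 30.3 TPM at ZT18.

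The other 14 members lacked this order. Nitab4.5_0009003g0040.1 (318 bases) was the only member whose 3 ZT18 libraries in root exceeded the other 9, a separation found for 0.502% of all gene models tested. It was at 17.4, 20.2 and 20.5 TPM in root at ZT18 and between 3.53 and 15.9 TPM at other times, with a log2 fold change of 1.13 (standard error 0.44, edgeR adjusted p = 0.856). Its difference did not pass the threshold over all gene models. In shoot it was at 30.9, 2.08 and 19.0 TPM and in shoot apex at 40.09, 49.4 and 22.4 TPM at ZT18, overlapping the other times in both. The remaining members with their highest root median at ZT18 were Nitab4.5_0001229g0010.1, Nitab4.5_0007303g0060.1, Nitab4.5_0007758g0090.1, Nitab4.5_0002579g0010.1 and Nitab4.5_0000246g0260.1. Nitab4.5_0007758g0090.1 (288 bases) was at 53.6, 156 and 153 TPM in root at ZT18, with replicate 1 below most libraries of other times. Nitab4.5_0008297g0010.1 (945 bases) was nearly level in root, where all 12 libraries lay between 4.31 and 10.3 TPM.

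The members were short. Their median length was 711 bases (258 to 2580), compared with 1203 bases for the gene models that passed the level filters, and 27 of the 29 were shorter than 1203 bases. Gene models that peaked at ZT0, ZT6 and ZT12 under the same rule had median lengths of 1075, 963 and 939 bases, and 58.2%, 62.8% and 64.0% of them were shorter than 1203 bases, against 93.1% of the members. Length was not part of the rule, and the difference between these sets was not tested. Libraries also differed in the length of the models their counts fell on. As a measure of this, each library was given the mean of 1 over model length (in kb), weighted by counts, so that a higher value means shorter models. It was 0.879, 1.13 and 0.896 per kb in shoot at ZT18 and 0.932, 0.934 and 0.675 per kb in shoot apex at ZT18. In shoot these were above all other shoot libraries except ZT6 replicate 1, at 1.89 per kb, while the rest of shoot ran from 0.690 to 0.863 per kb. Shoot apex did not show this, as its libraries of other times ran from 0.696 to 0.979 per kb. Replicates 1 and 2 of shoot apex ZT18 lay inside that range and replicate 3 lay below it.

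**Figure D5:**
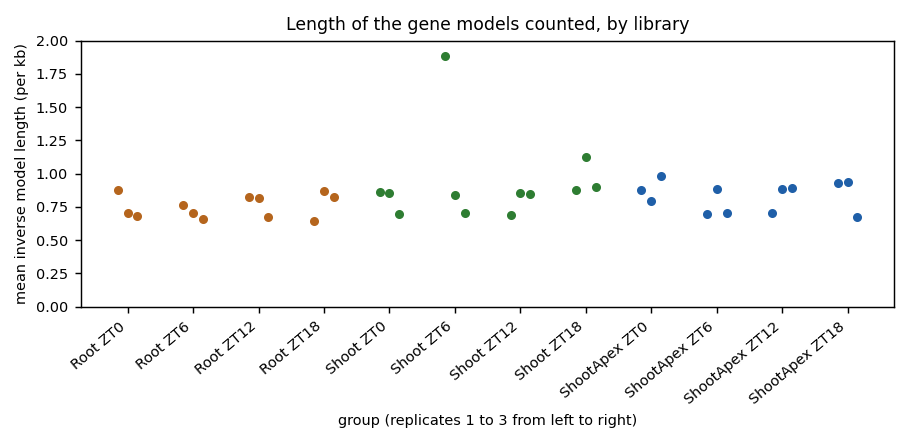
Mean inverse length (per kb) of the gene models counted in each of the 36 libraries, with replicates 1 to 3 from left to right in each group. The 3 shoot ZT18 libraries lay between 0.879 and 1.13 per kb, and shoot apex ZT18 replicate 3, at 0.675 per kb, lay below its other 2 replicates.

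The ZT18 replicate that was lowest for the most members had the lowest measure of its group in shoot apex and root, but the highest in shoot. Shoot ZT18 replicate 2, at 1.13 per kb, was the lowest for 25 members and for 81.1% of the gene models that passed the level filters. Shoot apex ZT18 replicate 3 was the lowest of its group for 15 members, with a median length of 408 bases, and replicate 2 was the lowest for 13 members, with a median length of 882 bases. Among the gene models that passed the level filters, 29.0% were lowest in replicate 3 and 38.8% in replicate 2. The same direction of length held among them, at 792 bases for those lowest in replicate 3 and 1416 bases for those lowest in replicate 2. In root, ZT18 replicate 1 had the lowest measure, 0.648 per kb against 0.872 and 0.827 per kb, and was the lowest ZT18 library for 19 members and for 34.5% of the gene models that passed the level filters. With the measure as a covariate in the fit, 0 members were higher or lower at ZT18 than at the other time-points, as without it. The median log2 fold change was -0.72. Over the root time-points 3 members differed, against 4 without it, and 3 were lower at ZT18 than at ZT6, against 2. Of all gene models tested, 98 and 67 were called in these 2 comparisons, against 87 and 55 without it. The part of library length differences in the aerial peak was not tested.

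Most members were also expressed in root. The median over 12 libraries was above both aerial medians in root for 21 of the 29 and below both for 4. Among the gene models that passed the level filters, the shares were 47.1% and 31.7%. Taken over the members separately in each tissue, the middle value of these medians was 10.7 TPM in root (0 to 772), 5.14 TPM in shoot (1.51 to 444) and 4.29 TPM in shoot apex (1.02 to 310.0). Because the rule sets aerial levels, these tissue differences are given as values with no test. The 29 members lay on 29 different scaffolds by their identifiers, and their positions relative to each other were not examined.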

How the data were processed

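RNA-seq libraries of 3 tissues at 4 time-points were made by the authors from total RNA with random primed cDNA, read as single 100-base reads, trimmed and mapped to gene models predicted on assembly Nitab4.5. Submitters' processing notes name CASAVA 1.9.4, Bowtie 1.1.0 and RSEM 1.2.7. The authors deposited, for each library and model, an expected count, which is an estimated count without normalization, and TPM, which divides it by model length and brings every library to a common total. RSEM shares reads between similar copies, so values of close homeologs are uncertain. Deposited lengths of 83.7% of models are multiples of 3, and effective length equals length. A table of the whole series, named for TPM, holds expected counts and was not used.

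The members were chosen on medians of TPM as described in the report, and the members and lists were chosen with earlier results of these data known. Since only 29 passed, the member of median score was taken at rank 15. Named gene models were the 2 of highest, the median and the 2 of lowest score with the 2 next below, the 2 most abundant, the 2 lowest in root, those past the threshold in root (0 in the main contrast), and neighbours on a scaffold (0 pairs). Other gene models were named after their values were seen. Expected counts were rounded, filtered by filterByExpr (minimum count 10, minimum total 15), normalised by TMM and fitted with edgeR 4.0.16 (quasi-likelihood, 12 groups, 36 libraries, no replicate block) with Benjamini-Hochberg adjustment over 44594 models and a threshold of 0.05. All tests were two-sided. p-values measure the spread between the 3 libraries of a group, in 1 estimate shared by all 12 groups. Root p-values thus rest on shoot and shoot apex replicates too, except in the fit of root libraries alone. Alternatives used DESeq2 1.42.0 and limma 3.58.1 on log2(TPM + 1) and log2(TPM + 0.1), in R 4.3.3, and tables were made with Python 3.11.15 and pandas 2.3.3. Identical counts were found in 0 pairs of libraries. The study calls the replicates biological. Deviations of same-numbered root libraries correlated weakly between ZT6 and ZT18 (0.14, 0.10 and 0.19). In no other comparison of root time-points did all 3 pairs exceed 0.1, and all same-numbered root pairs ran from -0.81 to 0.68. Whether ZT6 and ZT18 are paired by number was not tested.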

Additional observations from a re-analysis of the deposited data

How the results depend on the processing

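The root counts of members higher or lower at ZT18 than over the other time-points, and higher than at each single time-point, were 0 in all alternatives, including every root library left out (0 to 0). The number differing between root time-points, 4, was 7 with DESeq2, 0 with limma at either pseudocount, 0 with root libraries alone, and 0 without root ZT6 replicates 1 and 2 and root ZT18 replicate 2 together, chosen after seeing the data. It ran from 0 to 6 with each root library left out. The number lower at ZT18 than at ZT6, 2, was 6 with DESeq2, 0 and 1 with limma at 0.1 and 1 TPM added, 0 with root libraries alone or without those 3 root libraries, and 4 without shoot ZT6 replicate 1 and shoot ZT18 replicate 2 (this comparison and that setting were also chosen after seeing the data), and ran from 0 to 5 with each left out. In these tests DESeq2 also called more gene models of any kind, 359 and 261 of 44594, against 87 and 55 in edgeR. Limma called 18 and 18 with 0.1 TPM added, and 264 and 189 with 1 TPM added. Root libraries alone gave 9 and 30 calls, and the fit without those 3 root libraries 5 and 3. Without the 2 shoot libraries 136 gene models were lower at ZT18 than at ZT6. With the replicate number as a block, 1 and 0 members passed these tests, and 51 and 39 gene models of any kind. Over the 4 time-points the numbers do not pair the root libraries (the correlation of deviations exceeded 0.1 in 7 of 18 same-numbered pairs, from -0.81 to 0.68, and 3 of 12 libraries correlated best with their own number). All 3 pairs of ZT6 and ZT18 exceeded 0.1, but only weakly, at 0.14, 0.10 and 0.19. The block changed no other root count at an adjusted p under 0.05. The median root log2 fold change, -0.74, ran from -0.93 to -0.36. Gene models passing the rule, 29, were 44 with no minimum TPM and 18 with a minimum of 10 TPM, which kept 18 members, and ran from 15 to 38 with each aerial library left out, with 12 to 29 members kept. Separation of ZT18 in shoot, 11 members, was 18 in TMM-scaled CPM, a scale on which the share over all gene models was not computed. The number of members with their highest root median at ZT18, 6, ran from 6 to 9 with each root library left out. Except where a setting tests fewer libraries or gene models by construction, the cause of these differences was not tested. With 3 libraries per group, changes smaller than the spread described in the report could not be detected.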
